A study of Drosophila melanogaster with 36 samples.

Results

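Astrocyte-like glia sorted from the brains of 5-day-old Drosophila melanogaster females were compared with the unsorted cells of the same brains. Of the 36 RNA-seq libraries in the series, 6 belong to this comparison and were chosen by their labels alone: 3 libraries of cells sorted as GFP+ with the driver line GMR86E01-GAL4 at day 5, and 3 libraries labelled whole brain from the same line and age. In this line a fragment of regulatory DNA drives the yeast activator GAL4, which in turn switches on a UAS reporter for green fluorescent protein. Cells were collected by their GFP signal, and activity of the fragment in each collected cell was not measured. Whole brain here means the dissociated cell suspension before sorting, which came from flies of the same genotype, sex and age. Same-numbered libraries of the 2 kinds came from the same pool of dissected brains. Every brain was dissociated with collagenase in the presence of actinomycin D, which blocks new transcription. In the sorting, dead cells were gated out with DAPI, and the GFP gate was set on GFP- brain tissue. The whole brain suspensions were not sorted, so sorting and cell type cannot be told apart in this comparison. The driver lines GMR56F03 and GMR10E12, which mark ensheathing glia, and the same GMR86E01 line at day 70 serve below only to show where the young astrocyte-like glia differed from the populations most like them.

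Astrocyte-like glia are the neuropil glia of the fly that send fine branches among synapses. They take up glutamate and GABA released by neurons, turn glutamate into glutamine, and are the fly cells most often compared with mammalian astrocytes. Ensheathing glia, the other neuropil glia, wrap the borders of the neuropil and clear debris, whereas cortex glia enclose neuronal cell bodies and surface glia form the barrier between the brain and the hemolymph.

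The 3 whole brain libraries held 10479157, 2863540 and 7714369 counts, and the 3 sorted libraries 1514977, 3903428 and 13611810. A count of 3, the level below which a gene could not be told from absence, corresponded to 0.234 to 0.951 CPM (counts divided by the scaled library size) in whole brain and to 0.255 to 2.23 CPM in sorted cells, counting error only. Counts are given as CPM after TMM scaling over the 6 libraries. Between 10463 and 11564 genes were detected in whole brain libraries and between 7970 and 9926 in sorted ones. The correlation of log2(CPM + 1) across genes was 0.956 to 0.968 between whole brain libraries, 0.860 to 0.915 between sorted libraries and 0.614 to 0.741 between the 2 kinds. Whole brain replicate 3 stood apart in genes of digestion: Amy-p, which encodes an amylase, had 108998 counts there and 14 and 2 counts in replicates 1 and 2. The filter on low counts kept Amy-p out of the test. Whole brain replicate 2 held higher levels of glial markers than the others, as the values below show.

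Of 8316 genes tested, 3320 (39.9%) differed between sorted cells and whole brain at an adjusted p below 0.05. Of these, 1745 (21.0%) were higher in sorted cells and 1575 (18.9%) were lower. The difference was larger than 1 log2 unit for 1514 of the higher and 1346 of the lower genes, and larger than 3 log2 units for 468 and 439. For 4723 genes (56.8%) the 3 sorted values did not overlap the 3 whole brain values. The median log2 difference over all genes tested was -0.05. This median and the shares of 21.0% higher and 18.9% lower are the background for the gene groups below. With libraries scaled to their total counts in place of TMM, that median lay lower by 0.42 log2 units, and 1305 genes were called higher and 2338 lower, so that 35.8% of the calls were higher in place of 52.6%. All differences below are relative to the TMM scale and come from a fit without pairing, unless the replicate block is named. That block pairs same-numbered libraries, and with it 1421 genes were called higher and 1309 lower. In bulk libraries, fewer cells of a type and less RNA per cell cannot be told apart.

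The defining genes of astrocyte-like glia were strongly enriched in the sorted cells. Astrocytic leucine-rich repeat molecule, alrm, the gene most used to mark this cell type (chromosome 3R, 25381065 to 25382781, minus strand, dm6), measured 172, 518 and 227 CPM in the 3 whole brain libraries and 7526, 7922 and 6924 CPM in the 3 sorted ones. Sorted levels were far above every whole brain level, and the sorted libraries lay close together while whole brain replicate 2 exceeded the other whole brain libraries. The log2 difference was 4.61 ± 0.45 (SE) with an adjusted p of 2.94e-04. The GABA transporter Gat on chromosome 4 (629691 to 635350, plus strand) measured 195, 661 and 244 CPM in whole brain and 9643, 9439 and 8871 CPM in sorted cells, a log2 difference of 4.67 ± 0.51, adjusted p = 4.37e-04. The glutamate transporter Eaat1 rose from 417, 764 and 420.5 CPM to 4228, 4348 and 5235 CPM, a log2 difference of 3.11 ± 0.29, adjusted p = 2.46e-04. Again no sorted value overlapped a whole brain value, which held for 56.8% of all genes tested.

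All 7 astrocyte-like markers tested were higher in sorted cells, with a median log2 difference of 4.32, against -0.05 over all genes. The amine acetyltransferase AANAT1 measured 79.2, 109 and 87.2 CPM in whole brain and 689, 754 and 669 CPM in sorted cells (log2 difference 2.94 ± 0.19). Its span on chromosome 2R overlaps CG42568 and DnaJ-60 on the other strand, and the use of strand in the counting is not given in the sources used here. Ebony, the gene e, which joins beta-alanine to dopamine and histamine, had a log2 difference of 3.86 ± 0.41. The lipid phosphatase wun2 (4.36 ± 0.48) and the FGF receptor heartless, htl (4.32 ± 0.30), completed the list. The 7 genes summed to 979, 2362 and 1138 CPM in whole brain and to 25416, 25881 and 24965 CPM in sorted cells. The plot of marker genes by library shows these values beside those of a selection of neuron and hemocyte genes.

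**Figure D1:**
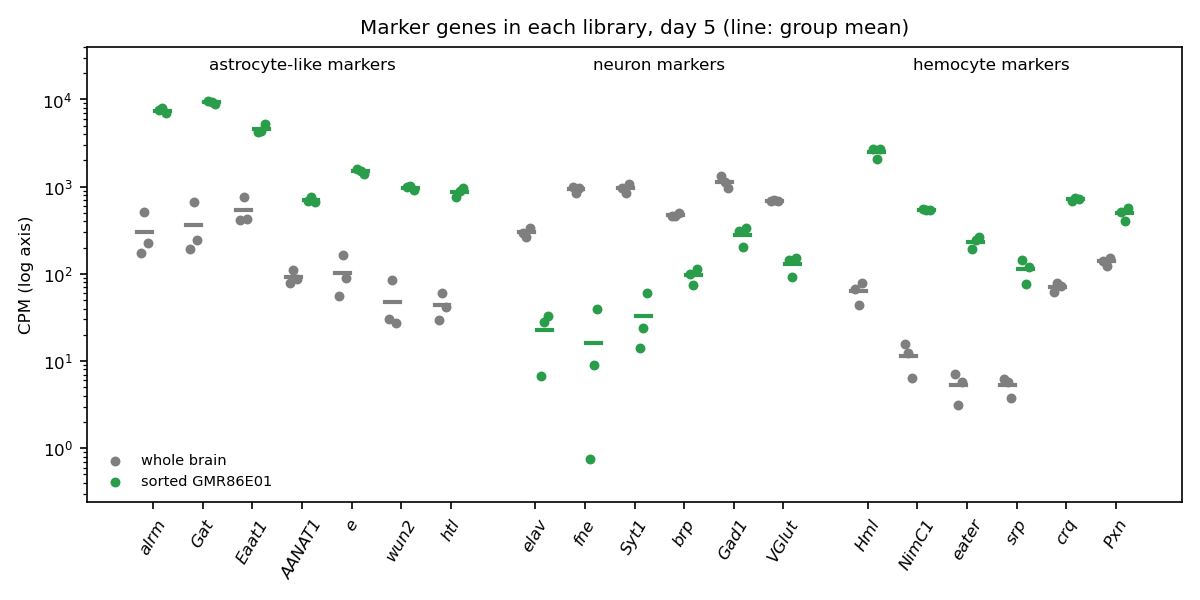
CPM on a log axis of astrocyte-like, neuron and hemocyte marker genes in each of the 3 whole brain (grey) and 3 sorted (green) libraries, with a short line at the group mean. The neuron genes drawn (elav, fne, Syt1, brp, Gad1 and VGlut) are a selection from 21 markers, of which 16 were called lower and 5 were not called. The hemocyte genes drawn leave out He. The 3 sorted libraries sit above all whole brain libraries for alrm, Gat, Eaat1 and the hemocyte genes drawn, and below them for the neuron genes drawn.

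Genes that all glia share moved the same way. The 5 pan-glial markers tested were all called higher, with a median log2 difference of 3.17. The homeodomain factor repo, which marks nearly every fly glial cell outside the midline, measured 28.5, 58.6 and 37.6 CPM in whole brain and 503, 536 and 567 CPM in sorted cells (3.70 ± 0.29). Glutamine synthetase 2, Gs2, was the most abundant of these genes, at 1212, 3276 and 1492 CPM and 17984, 18099 and 17810.4 CPM (3.17 ± 0.39). The sodium pump subunit nrv2 (2.59), the ETS factor pnt (3.51) and the G protein regulator loco (1.28) were also higher. For repo, Gs2 and nrv2 the highest whole brain level was in replicate 2, and the sorted levels were above it.

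Markers of the other glial classes were mixed. Of the 4 ensheathing glia markers, drpr, the engulfment receptor Draper, was higher (94.2, 115 and 106 CPM against 377, 392 and 421 CPM, log2 difference 1.92 ± 0.15). The TNF ligand egr was higher too (5.99, 15.2 and 17.9 CPM against 131, 29.7 and 73.0 CPM, adjusted p = 0.0142), a call not kept with the replicate block (adjusted p = 0.0508). The other two, sgl and Eaat2, overlapped between groups, with log2 differences of 0.69 and 0.21 (-0.20 for Eaat2 on total counts). Without whole brain replicate 3, where sgl was highest among whole brain libraries, sgl passed the threshold (log2 difference 1.29, adjusted p = 0.0478). Of the 3 cortex glia markers, zyd (2.58 ± 0.21) and Cyp4g15 (2.97 ± 0.34) were higher, and wrapper, at 8.41, 9.83 and 15.2 CPM and 15.6, 1.52 and 7.82 CPM, was not called (-0.49 ± 0.76, adjusted p = 0.65). The surface glia list held 3 higher genes of 5 tested, namely moody (1.83 ± 0.33), Jupiter (0.75 ± 0.16) and vkg. On total counts Jupiter was not called (0.33, adjusted p = 0.17). The trehalose transporter Tret1-1, a gene of the perineurial layer, went the other way at 66.3, 72.6 and 75.0 CPM in whole brain and 0, 31.5 and 15.1 CPM in sorted cells. The values did not overlap, as for 56.8% of all genes tested, but the test did not call the difference (-2.12 ± 0.84, adjusted p = 0.0855). Without sorted replicate 1, which had no Tret1-1 count, it was called lower (-1.65, adjusted p = 0.0104).

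Neuronal genes were depleted but not absent. Of 21 neuron markers, 16 were lower in sorted cells, 5 were not called, 1 of them with a positive difference, and none was called higher. The median log2 difference was -2.88. Together the 21 markers summed to 13556, 12399 and 13445 CPM in whole brain and to 1441, 1311 and 2471 CPM in sorted cells, highest in sorted replicate 3. The RNA-binding protein gene elav fell from 298, 264 and 333 CPM to 6.70, 28.2 and 33.2 CPM (-3.63 ± 0.47). Its relative fne fell from 996, 836 and 969 CPM to 0.744, 9.09 and 39.1 CPM (-5.67 ± 0.92), the largest difference of the list. Synaptotagmin, Syt1, fell from 964, 843 and 1061 CPM to 14.1, 23.6 and 60.4 CPM (-4.81 ± 0.53). The depletion was smaller for the active zone protein brp (-2.29 ± 0.19), for Gad1, which makes GABA (-2.01 ± 0.24), and for the glutamate loader of synaptic vesicles VGlut (-2.41 ± 0.23).

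The monoamine genes Vmat, ple and DAT did not pass the test. Their groups did not overlap, which held for 56.8% of all genes tested. Vmat, which loads monoamines into vesicles, measured 610.0, 470.5 and 448 CPM and 269, 55.8 and 233 CPM (adjusted p = 0.0597, 0.0352 with the replicate block and 0.0143 without sorted replicate 2). Tyrosine hydroxylase, ple, measured 78.4, 64.0 and 82.7 CPM and 1.49, 0 and 21.5 CPM, and was called lower with the replicate block (adjusted p = 0.0387) or without sorted replicate 3 (log2 difference -7.29, adjusted p = 0.00115). The dopamine transporter DAT behaved alike at 108, 92.9 and 86.9 CPM and 0, 2.12 and 31.4 CPM (adjusted p = 0.046 with the block and 9.31e-04 without sorted replicate 3).

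Photoreceptor genes varied widely between libraries of both kinds. The 18 genes of the list summed to 1055, 3161 and 6502 CPM in whole brain and to 575, 2880.4 and 933 CPM in sorted cells, so that sorted replicate 2 lay above whole brain replicate 1. Of 16 tested, 3 were lower and 13 not called, against 18.9% lower over all genes tested. The median log2 difference was -1.46, with 0 positive differences. The 3 lower genes were norpA (-1.11), rdgA (-1.54) and rdgB (-0.96), a phospholipase C, a diacylglycerol kinase and a lipid transfer protein of phototransduction. The 8 muscle genes summed to 445, 45.3 and 1329.8 CPM in whole brain and to 67.0, 50.3 and 10.2 CPM in sorted cells, again led by whole brain replicate 3. Of 7 muscle genes tested 3 were called lower, with counts of 0 without whole brain replicate 3, 0 without sorted replicate 3, 6 without whole brain replicate 2 and 1 with the replicate block. Of 4 fat body and yolk genes tested, 2 were called lower (1 without whole brain replicate 2 or sorted replicate 2, 0 without whole brain replicate 3). The only tracheal gene tested was not called. Without whole brain replicate 1 the count of lower photoreceptor genes was 5.

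Genes of hemocytes, the macrophage-like blood cells of the fly, were enriched beside those of astrocyte-like glia. All 7 hemocyte markers were higher, with a median log2 difference of 5.30, and they summed to 299, 268 and 321 CPM in whole brain and to 4839.9, 4115 and 4906 CPM in sorted cells. Hemolectin, Hml, a clotting factor made by hemocytes, measured 66.6, 44.4 and 78.1 CPM in whole brain and 2716, 2104 and 2675 CPM in sorted cells (5.30 ± 0.28, adjusted p = 3.47e-05). The phagocytic receptor NimC1 measured 15.7, 12.4 and 6.41 CPM and 559, 536 and 541 CPM (5.56 ± 0.36, adjusted p = 6.40e-05). Its relative eater measured 7.08, 3.17 and 5.82 CPM and 191, 243 and 266 CPM (5.38 ± 0.32). In each case all sorted libraries were high and all whole brain libraries low.

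The other hemocyte markers were the GATA factor srp (4.42 ± 0.35), the scavenger receptor crq (3.34 ± 0.17), the peroxidase Pxn (1.83 ± 0.19), and He, which had 1, 0 and 0 counts in whole brain and 33, 29 and 145 counts in sorted cells. None of the 7 was at 0 in a sorted library. Genes of the Nimrod family outside the list, named after their values were seen, had the smallest p of all genes tested: NimB2 had a log2 difference of 5.40 ± 0.17, adjusted p = 1.64e-05, and NimB4 of 5.42 ± 0.18, adjusted p = 1.64e-05. Hemocyte markers were also enriched in the cells sorted with the ensheathing drivers, with medians of 3.53 for GMR56F03 and 3.86 for GMR10E12 and all 7 called in each line. The astrocyte-like enrichment was larger for Hml (1.51 ± 0.50, adjusted p = 0.0475) and crq (1.60 ± 0.27, adjusted p = 6.62e-04), and for the other 5 the difference between cell types was not called. The call for Hml was lost when any of the 6 GMR86E01 libraries was left out (adjusted p between 0.0566 and 0.13).

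Several basement membrane genes of the list of adhesion and extracellular matrix genes were higher in sorted cells. Both type IV collagens, Col4a1 (113, 133 and 121 CPM against 2273, 2171 and 2518 CPM, 4.25 ± 0.17) and vkg (69.0, 93.2 and 76.1 CPM against 1159, 1093 and 1256 CPM, 3.88 ± 0.19), were higher. So were the laminin chains LanA (5.29 ± 0.27), LanB1 (4.66 ± 0.23) and LanB2 (5.00 ± 0.29) and the collagen-binding protein SPARC (128, 174 and 135 CPM against 2717, 2666 and 2336 CPM, 4.14 ± 0.20). The summed hemocyte markers rose in the same sorted libraries, and their part in the results for basement membrane, engulfment, lipid carrier and immune genes was not tested. The heparan sulfate proteoglycan trol was higher by a smaller amount (1.33 ± 0.25). Nidogen, Ndg, did not pass the filter, with 2, 0 and 211 counts in whole brain and 0, 0 and 2 counts in sorted cells. As a whole the list held 12 higher and 7 lower genes of 27 tested, with a median of 0.78. Lower were Nrx-1 (-3.02) and the neuroligins Nlg2 (-3.06), Nlg3 (-2.63) and Nlg4, which bind neurexins across synapses. Nlg4 fell from 99.3, 91.3 and 101 CPM to 7.44, 6.67 and 7.06 CPM (-3.79 ± 0.22).

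**Figure D2:**
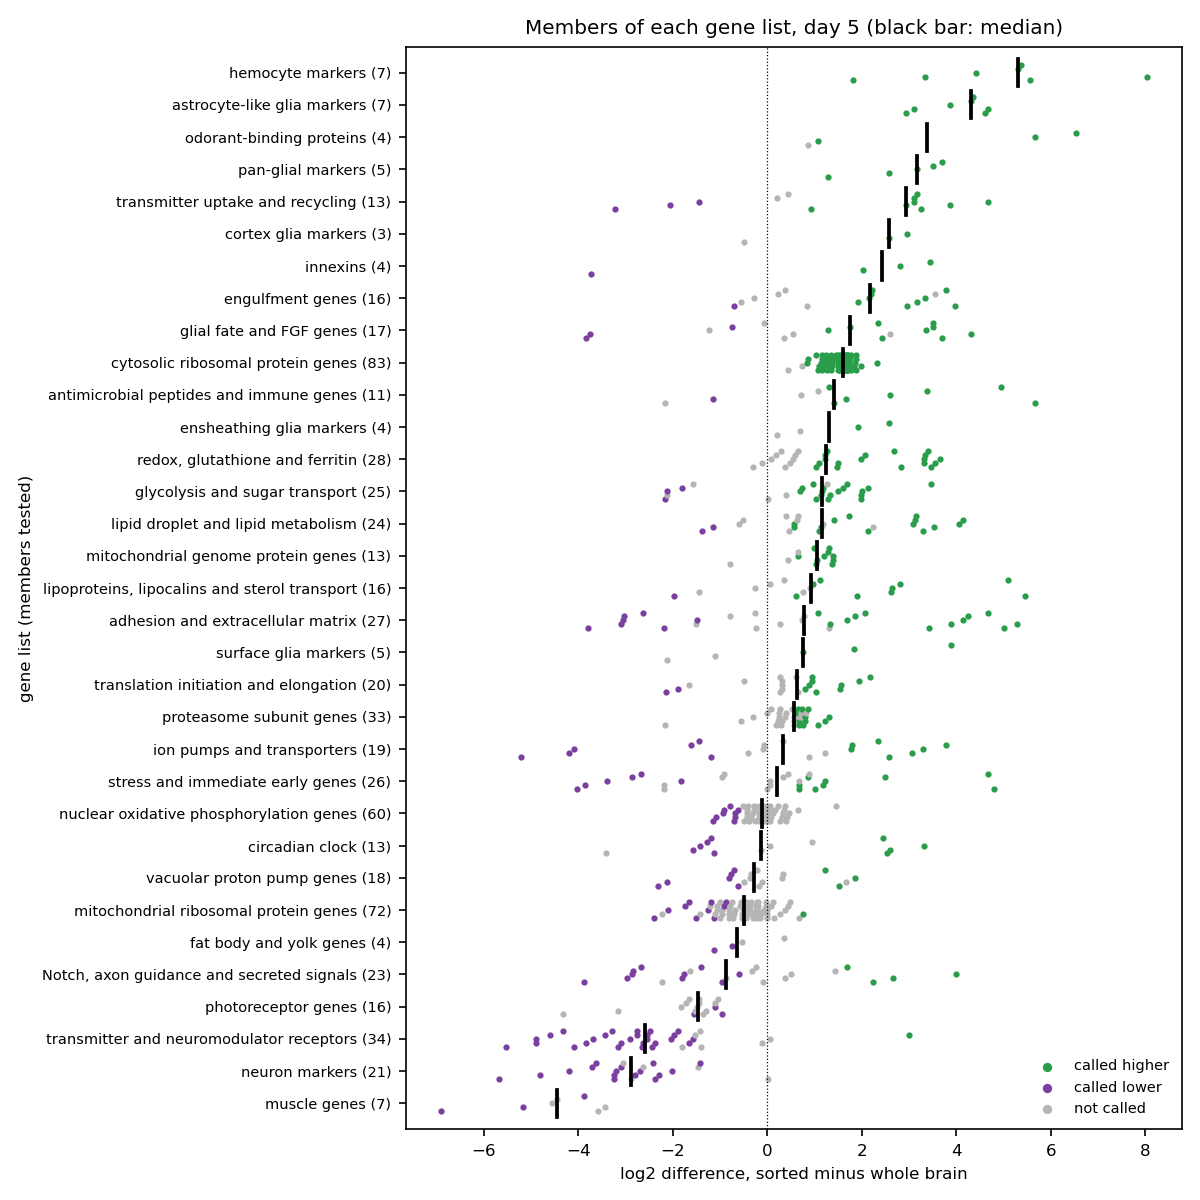
Log2 difference, sorted cells minus whole brain at day 5, of every tested member of each gene list except the tracheal list, which had 1 tested gene. Points are green (called higher), purple (called lower) or grey (not called), with a black bar at the list's median. Hemocyte markers (5.30), astrocyte-like markers (4.32) and pan-glial markers (3.17) have high medians, while neuron markers (-2.88) and transmitter receptors (-2.58) lie on the other side of 0.

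Most tested genes for uptake and recycling of transmitters were higher in sorted cells. Among them Gat, Eaat1, Gs2, e and AANAT1 are astrocyte-like or pan-glial markers already counted above. Of 13 genes tested, 8 were higher, 3 lower and 2 not called, and the list summed to 3448, 6629 and 3841 CPM in whole brain and to 36425, 36159 and 36275 CPM in sorted cells. The glutamate cycle split between paralogs. Gs2 was higher, as above, whereas the mitochondrial glutamine synthetase Gs1 fell from 271, 227 and 263 CPM to 94.5, 92.1 and 95.0 CPM (-1.43 ± 0.15). Eaat1 was higher while Eaat2, a transporter linked to taurine and aspartate, overlapped at 143, 193 and 152 CPM and 217, 145 and 202 CPM. Glutamate dehydrogenase, Gdh, fell from 484, 399 and 460.1 CPM to 83.3, 98.5 and 138 CPM (-2.06 ± 0.22).

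On the GABA side, Gat stood far above whole brain and the transaminase Gabat, which breaks GABA down, was higher by 0.92 log2 units (489, 675 and 491 CPM against 1089, 1001 and 1046 CPM). The neurotransmitter transporter family members ine (33.1, 74.2 and 48.2 CPM against 521, 455 and 499 CPM, 3.26 ± 0.31) and List (23.7, 39.6 and 29.2 CPM against 293, 202 and 299 CPM, 3.11 ± 0.27) were higher as well. The vesicular transporter relative prt, known from the mushroom body, was lower (-3.22 ± 0.30).

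Receptors for transmitters and neuromodulators were lower almost throughout. Of 34 tested, 27 were lower, 6 not called and 1 higher, with a median log2 difference of -2.58. The exception was the adenosine receptor AdoR, at 1.09, 2.22 and 2.02 CPM in whole brain and 11.2, 14.9 and 15.6 CPM in sorted cells (3.00 ± 0.51, adjusted p = 0.00318), a low level in both. The GABA-gated chloride channel Rdl fell from 828, 623 and 814 CPM to 11.2, 12.4 and 23.1 CPM (-5.53 ± 0.34), and the metabotropic GABA receptors GABA-B-R1 (-4.09 ± 0.42) and GABA-B-R2 (-2.76 ± 0.17) were lower too. Nicotinic subunits were among the most depleted, such as nAChRalpha1 (-4.89 ± 0.62) and nAChRalpha6 (-4.59 ± 0.31).

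The octopamine and tyramine receptor Oct-TyrR, through which larval astrocytes respond to these amines, measured 59.5, 65.6 and 51.4 CPM in whole brain and 14.1, 0.303 and 4.68 CPM in sorted cells and was called lower (-3.43 ± 0.86, adjusted p = 0.016), a call lost without whole brain replicate 1 or 2 or sorted replicate 3 (adjusted p = 0.0552, 0.0617 and 0.0545). The kainate-type glutamate receptor KaiR1D fell from 80.0, 80.5 and 72.3 CPM to 16.4, 14.5 and 12.4 CPM (-2.44 ± 0.23), and the metabotropic glutamate receptor mGluR from 163, 160.1 and 153 CPM to 8.19, 5.76 and 17.5 CPM (-3.83 ± 0.41). Sorted values of all these receptors lay below every whole brain value, while the groups did not overlap for 56.8% of all genes tested.

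Ion pump and innexin genes of 1 family went opposite ways. Of 19 ion pump and transporter genes tested, 7 were higher, 6 lower and 6 not called. The sodium pump needs a beta subunit beside the catalytic Atpalpha, whose values did not overlap but which was not called (3826, 3735 and 4023 CPM against 4900.1, 4192 and 5445 CPM, 0.33 ± 0.15, adjusted p = 0.14, and -0.084 on total counts). The beta subunit nrv2 rose from 519, 1132 and 594 CPM to 4393, 4057 and 5035 CPM (2.59 ± 0.32), while nrv3 fell from 3357, 3130.2 and 3291 CPM to 41.7, 31.2 and 189 CPM (-5.20 ± 0.74). The potassium channel Irk2 rose from 97.8, 164 and 118 CPM to 1039, 1077 and 1064 CPM (3.07 ± 0.23), and the carbonic anhydrases CAH1 (3.78 ± 0.29) and CAH2 (3.30 ± 0.42) were higher.

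Water witch, wtrw, a TRP channel through which larval astrocytes were shown to signal, rose from 47.7, 82.4 and 56.0 CPM to 338, 272 and 327 CPM (2.34 ± 0.24). Lower were the potassium chloride cotransporter kcc (-1.62 ± 0.20) and the sodium calcium exchanger Nckx30C (-4.19 ± 0.51). Among innexins, which form the gap junctions of insects, ogre (99.3, 266 and 165 CPM against 1930.3, 1764 and 2033 CPM, 3.44 ± 0.36), Inx2 (87.3, 232 and 154 CPM against 1118, 1043 and 1168 CPM, 2.82 ± 0.35) and Inx3 (2.03 ± 0.42) were higher. The neuronal innexin shakB fell from 224, 227 and 257 CPM to 11.9, 15.2 and 24.1 CPM (-3.73 ± 0.28).

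Genes of glial fate and FGF signaling were mostly higher, in a list that shares repo, pnt, loco and htl with the marker lists above. Of 17 tested, 9 were higher, 3 lower and 5 not called (median 1.75). With htl, its adaptor stumps rose from 37.3, 68.8 and 37.7 CPM to 501, 419.8 and 543 CPM (3.36 ± 0.29), whereas the FGF ligand ths fell from 71.2, 72.3 and 96.8 CPM to 0, 2.42 and 11.9 CPM (-3.75 ± 0.81). Notch, the gene N, rose from 26.1, 32.7 and 26.7 CPM to 309, 300.0 and 361 CPM (3.51 ± 0.18), and the EGF pathway genes spi (1.75 ± 0.18) and rho (2.33 ± 0.26) were higher. The homeodomain factor pros, which astrocyte-like glia need but many neurons also express, measured 3764, 4125 and 4922 CPM in whole brain and 2806, 2451 and 2351 CPM in sorted cells. It was called lower (-0.75 ± 0.17, adjusted p = 0.00948), but not without whole brain replicate 3 (log2 difference -0.59, adjusted p = 0.0634). A noncoding gene, lncRNA:CR46008, lies within it on the other strand. Of 23 genes of Notch ligands, axon guidance and secreted signals, 4 were higher and 10 lower, against 21.0% and 18.9% over all genes tested. The lower count was 5, 6 and 6 without whole brain replicates 1, 2 and 3, and the higher count 7 without sorted replicate 1. Among the higher were the activin-type ligand daw (1.17, 4.76 and 2.02 CPM against 52.1, 36.7 and 28.6 CPM, 4.00 ± 0.59), the BMP gbb (2.67 ± 0.34) and the semaphorin Sema2a (2.25 ± 0.32). Among the lower were NetB (-3.87 ± 0.62), Sema2b (-2.97 ± 0.30) and Wnt5 (-2.84 ± 0.28).

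Of 16 engulfment genes tested, 9 were higher, 1 lower and 6 not called (median 2.18). Beside drpr and crq, the higher genes included the Draper adaptor ced-6 (49.4, 107 and 69.7 CPM against 734, 583 and 699 CPM, 3.16 ± 0.31), the kinase Shark (2.20 ± 0.41), the Rac activator mbc (43.1, 84.3 and 48.9 CPM against 761, 829.5 and 837 CPM, 3.79 ± 0.29), the GTPase Rac2 (2.97 ± 0.42) and the receptor Pvr (12.9, 13.6 and 16.5 CPM against 214, 253 and 212 CPM, 3.98 ± 0.20). The adaptor Crk was lower (-0.70 ± 0.16). Both crq, counted here as well, and Pvr are also genes of hemocytes.

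Lipid genes leaned toward the sorted cells. Of 24 lipid droplet and lipid metabolism genes tested, 14 were higher and 2 lower (median 1.16). The droplet coat protein Lsd-2 rose from 32.2, 49.8 and 43.8 CPM to 441, 399 and 394 CPM (3.30 ± 0.21), and the other coat protein, Lsd-1, from 2.96, 3.49 and 0.356 CPM to 28.3, 17.3 and 30.3 CPM (3.52 ± 0.76). The droplet-bound Jabba rose from 4.05, 8.56 and 2.85 CPM to 61.8, 95.5 and 99.8 CPM (4.14 ± 0.46). The fatty acid carriers Fatp1 (1.73 ± 0.25), Fatp3 (4.06 ± 0.31) and fabp (3.16 ± 0.57) and the carnitine acyltransferases whd (2.13 ± 0.27) and CPT2 (3.13 ± 0.52) were higher. Fatty acid synthase FASN1 was called lower (157, 143 and 143 CPM against 32.0, 42.7 and 92.2 CPM, -1.38 ± 0.37, adjusted p = 0.0224), a call lost without whole brain replicate 1 (adjusted p = 0.0561) or sorted replicate 2 (adjusted p = 0.0752).

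Among lipoproteins, lipocalins and sterol carriers, 9 of 16 were higher and 1 lower (5 higher without whole brain replicate 2). The 2 lipophorin receptors split: LpR2 rose from 76.7, 85.0 and 82.0 CPM to 601, 446 and 659 CPM (2.81 ± 0.20), and LpR1 fell from 269.5, 216 and 245 CPM to 36.5, 53.0 and 94.5 CPM (-1.96 ± 0.34). The sterol binding protein Npc2a (2.64 ± 0.17) and the lipocalins GLaz (2.62 ± 0.36) and Karl (8.64, 7.29 and 5.46 CPM against 345, 299.7 and 295 CPM, 5.45 ± 0.24) were higher. Nplp2, annotated as a neuropeptide-like precursor, rose from 52.5, 46.3 and 40.2 CPM to 1509.8, 1702 and 1559 CPM (5.10 ± 0.19, adjusted p = 1.64e-05). The part of the hemocyte markers in the values of Karl and Nplp2 was not tested.

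Genes of glycolysis named below from Pgi to PyK were higher in the sorted cells. Of 25 glycolysis and sugar transport genes tested, 17 were higher, 3 lower and 5 not called, with a median of 1.16. The list summed to 7727, 8171 and 7620.4 CPM in whole brain and to 19946, 21432 and 20077 CPM in sorted cells. Trehalase, Treh, which splits the blood sugar trehalose into glucose, rose the most, from 291, 524 and 313 CPM to 4693, 4148 and 3547 CPM (3.46 ± 0.28, adjusted p = 1.51e-04). The glucose transporter Glut1 fell from 218, 206 and 228 CPM to 35.7, 39.1 and 68.2 CPM (-2.16 ± 0.27).

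Within glycolysis proper, Pgi (1.28 ± 0.15), Pfk (1.16 ± 0.17), Ald1 (0.97 ± 0.14), Tpi (1.61 ± 0.16), Gapdh1 (2.13 ± 0.15), Gapdh2 (1.15 ± 0.15), Pgk (1.32 ± 0.14), Pglym78 (1.19 ± 0.15), Eno (1.68 ± 0.14) and PyK (0.74 ± 0.15) were all called higher. Gapdh1 measured 326, 363 and 340.4 CPM and 1456, 1645 and 1416 CPM, and enolase, Eno, 1007, 1122 and 1030.2 CPM and 3416, 3402 and 3329 CPM. For these genes the sorted libraries all exceeded the whole brain libraries, while the groups did not overlap for 56.8% of all genes tested. On total counts, without TMM, PyK was no longer called (0.33, adjusted p = 0.12) and the list held 12 higher genes. Lactate dehydrogenase, Ldh, was low in all libraries (6.15, 3.49 and 2.97 CPM against 24.6, 5.15 and 21.4 CPM) and its groups overlapped. It lay just inside the threshold (1.99 ± 0.67, adjusted p = 0.0494) and was not called with the replicate block (adjusted p = 0.0897) or without any library except sorted replicate 2 (adjusted p between 0.073 and 0.15). The glycogen enzymes GlyS (1.99 ± 0.17), GlyP (1.03 ± 0.25) and AGBE (2.01 ± 0.30) were higher, GlyP not on total counts (0.61, adjusted p = 0.0727). The monocarboxylate transporter Sln (91.2, 67.2 and 83.9 CPM against 29.8, 19.1 and 21.6 CPM, -1.80 ± 0.26) and its partner basigin, Bsg (282, 278 and 314 CPM against 55.1, 45.2 and 99.0 CPM, -2.12 ± 0.30), were lower.

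**Figure D3:**
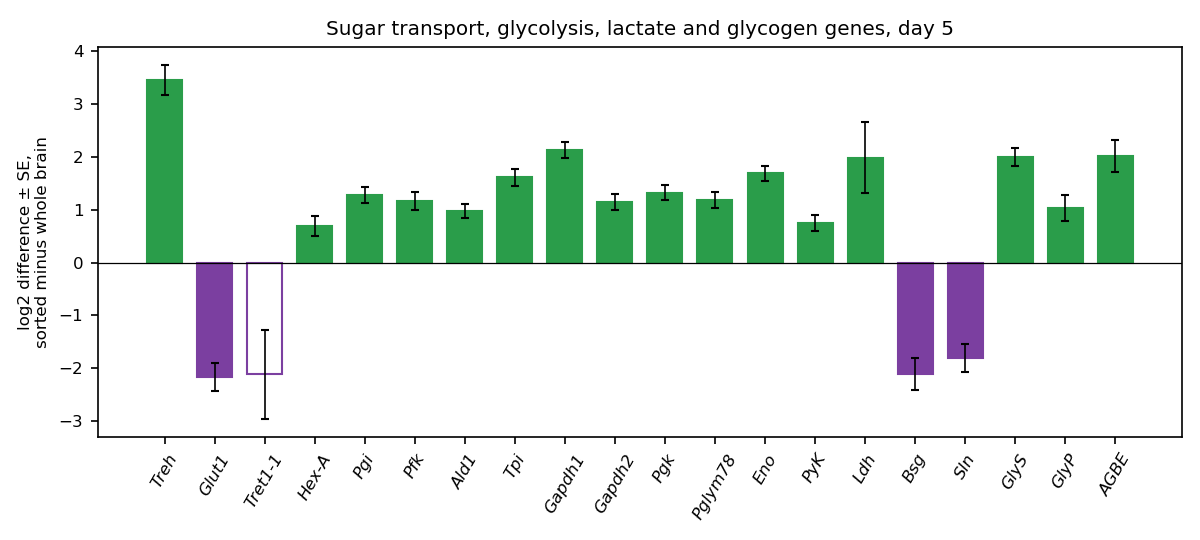
Log2 difference, sorted minus whole brain at day 5, of genes of sugar transport, glycolysis, lactate and glycogen in pathway order (bars from 0; whiskers ± 1 SE; filled bars, called at an adjusted p below 0.05; open bars, not called). From Pgi to PyK every bar points to sorted cells, while Glut1, Bsg and Sln point to whole brain.

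Genes of the defense against oxidants were higher in sorted cells as well. Of 28 redox, glutathione and ferritin genes tested, 18 were higher and none lower (median 1.25). The extracellular superoxide dismutase Sod3 rose from 63.4, 123 and 84.4 CPM to 973, 872 and 827 CPM (3.31 ± 0.27). The glutathione transferases GstD1 (92.0, 144 and 149 CPM against 909, 1006 and 835 CPM, 2.84 ± 0.23) and GstE12 (3.34 ± 0.23) were higher, and so were GstE1 (3.55 ± 0.22), GstE3 (3.65 ± 0.30) and GstE6 (3.40 ± 0.26). GstE genes lie in a cluster of similar sequences, so reads could be shared among them. Both ferritin chains, Fer1HCH (1.10 ± 0.14) and Fer2LCH (1.50 ± 0.15), and the transferrin Tsf1 (332, 591 and 696 CPM against 1723, 2127 and 2563 CPM, 1.99 ± 0.30) were higher.

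The stress and immediate early list was split, with 9 higher, 6 lower and 11 not called of 26 tested (median 0.20). The activity-regulated genes Hr38 (100.0, 74.8 and 88.4 CPM against 0, 4.24 and 9.10 CPM, -4.02 ± 0.69), sr (111, 78.3 and 85.6 CPM against 8.93, 2.73 and 7.74 CPM, -3.86 ± 0.44) and CG14186 (-3.39 ± 0.63) were lower, as was the small heat shock gene Hsp26 (-2.86 ± 0.35). Of the 5 Hsp70 genes tested, Hsp70Ba (17.0, 28.5 and 18.8 CPM against 566, 500.1 and 543 CPM, 4.66 ± 0.25) and Hsp70Bb (37.4, 105 and 43.2 CPM against 1853, 1651 and 1658 CPM, 4.81 ± 0.45) were called higher and Hsp70Aa lower (42.8, 39.6 and 44.5 CPM against 4.46, 10.6 and 18.8 CPM, -1.82 ± 0.46, adjusted p = 0.0162, a call lost without whole brain replicate 3 or sorted replicate 2 at adjusted p = 0.0512 and 0.0523). The Hsp70 genes are nearly identical copies, so the assignment of reads to a copy is uncertain. Of 27 antimicrobial and immune genes only 11 passed the filter on low counts, and of these 7 were higher and 1 lower. The antifungal peptide gene Drs rose from 2.10, 0.951 and 1.54 CPM to 124, 63.0 and 66.0 CPM (5.66 ± 0.45), the receptor PGRP-LC from 8.02, 10.1 and 9.14 CPM to 96.7, 116 and 72.2 CPM (3.39 ± 0.28) and the NF-kappaB factor Rel from 14.4, 21.6 and 23.1 CPM to 69.9, 142 and 141 CPM (2.59 ± 0.35). The receptor Toll, Tl, was lower (-1.16 ± 0.21). Hemocyte markers rose in the same libraries, and their part in these values was not tested.

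Among 13 clock genes tested, 4 were higher and 5 lower (3 lower with the replicate block or without whole brain replicate 3). Timeless, tim, rose from 15.6, 23.1 and 16.1 CPM to 156, 165 and 217 CPM (3.31 ± 0.25), and cryptochrome, cry, the light sensor of the clock, from 18.4, 34.6 and 38.9 CPM to 166, 162 and 199 CPM (2.53 ± 0.31). The activator Clk (2.59 ± 0.37) and the factor vri (2.46 ± 0.37) were higher too. The factor Pdp1 fell from 756, 662 and 762 CPM to 263, 172 and 298 CPM (-1.57 ± 0.23). Of 20 odorant-binding protein genes only 4 passed the filter, of which 3 were higher (5 without sorted replicate 1, when more members passed). Obp83cd, 1 of the 3, rose from 1.48, 1.27 and 0.950 CPM to 64.0, 73.6 and 55.3 CPM (5.67 ± 0.33).

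Genes for the cytosolic ribosome were higher nearly without exception. Of 83 ribosomal protein genes tested, 81 were higher and none lower, with a median log2 difference of 1.60. They took 31444, 39963 and 30400.2 CPM of the whole brain libraries and 98087, 109353 and 83090.1 CPM of the sorted ones. On total counts the median was 1.19 and 79 were called higher. The members not called were RpL39 (0.43) and RpLP0-like (0.73). RpL27A rose from 519.6, 682 and 515 CPM to 2107, 2306 and 1919 CPM (1.88 ± 0.18). Elongation factor genes exchanged paralogs: eEF1alpha1 rose from 854, 931 and 1393 CPM to 4967, 4906 and 4481 CPM (2.18 ± 0.22), and eEF1alpha2 fell from 1533, 1419 and 1442 CPM to 315, 288 and 389.9 CPM (-2.15 ± 0.17). The poly(A) binding protein gene pAbp fell from 1714, 1826 and 1909.8 CPM to 441, 321 and 707 CPM (-1.89 ± 0.29). Over the 20 translation factors tested, 9 were higher and 2 lower (4 lower without sorted replicate 3 or on total counts).

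Most protein genes of the mitochondrial genome were higher. Of 13 tested, 10 were higher (median 1.05), and they took 48663, 75445 and 60039 CPM of whole brain and 147933, 164296 and 134527 CPM of sorted libraries. The largest, mt:CoI, rose from 14893, 23001 and 18532 CPM to 49516, 53604 and 43492 CPM (1.38 ± 0.19). Of 60 nuclear genes for oxidative phosphorylation, none was higher, 9 were lower and 51 not called (median -0.12), against 18.9% lower and a median of -0.05 over all genes tested. Complex II subunit SdhA had the lowest value (433, 409.6 and 435 CPM against 173, 212 and 195 CPM, -1.14 ± 0.15). This list depended on the setting: 28 genes were lower on total counts, 5 with the replicate block, 3 without whole brain replicate 1 and 5 without whole brain replicate 3, while 3 were higher without sorted replicate 1 and 5 without sorted replicate 3. Of 72 mitochondrial ribosomal protein genes, 1 was higher and 10 lower, against 21.0% and 18.9% over all genes tested. The lower count was 26 on total counts, 5 with the block, 3, 5 and 4 without whole brain replicates 1, 2 and 3, and 18 without sorted replicate 1, and the higher count was 0 in each of these. Of 33 proteasome genes 12 were higher and none lower, a count that was 4 with the block, 2 on total counts, 4, 3 and 6 without whole brain replicates 1, 2 and 3 and 6 without sorted replicate 2. Of 18 vacuolar proton pump genes, 3 were higher and 6 lower (1 higher without whole brain replicate 1 and 5 without replicate 3, and 12 lower on total counts). Vha68-1 fell from 923, 778 and 827 CPM to 123, 153 and 235 CPM (-2.30 ± 0.26).

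By exon length, the nuclear protein-coding genes with the highest level in sorted cells were CG9394 at 8147 CPM per kilobase, Gs2 at 8052, alrm at 4343, CG7607 at 3538, RpL27A at 3335, RpS25 at 3235, Gat at 3219, RpS20 at 3057, CG4250 at 3035 and CG1552 at 2988. All 10 were also called higher than in whole brain, by 1.61 log2 units for RpS25 at the least and by 5.36 for CG4250 at the most. Choosing genes by their level in sorted cells favors such a result, and 21.0% of all genes tested were called higher. CG9394, on chromosome 2R (21118394 to 21120705, plus strand), measured 598, 1724 and 744 CPM in whole brain and 19866, 19033 and 17609.7 CPM in sorted cells. RpS20 overlaps CG17272 on the other strand.

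The 10 genes with the largest enrichment among those of at least 100 CPM in sorted cells and without overlap between groups were Cpr72Ec, CG15695, CG1561, CG5397, CG9372, CG34331, CG4950, CG42807, CG14629 and CG6870. Cpr72Ec, a gene of the cuticular protein family, measured 0.545, 2.54 and 3.09 CPM in whole brain and 39.4, 398 and 138 CPM in sorted cells (6.66 ± 1.06, adjusted p = 0.00223). It varied widely between sorted libraries, being lowest in replicate 1, as did CG1561 (94.5, 1371 and 1071 CPM) and CG6870 (53.6, 446 and 352 CPM). CG15695 was steadier, at 1.63, 2.22 and 1.54 CPM and 116, 128 and 114 CPM (6.09 ± 0.26, adjusted p = 1.90e-05). CG4950 (28.6, 23.1 and 22.0 CPM against 1139, 1229 and 1248 CPM) and CG14629 (27.2, 21.2 and 20.8 CPM against 1237, 1085 and 1044 CPM) were the most abundant of the steady ones.

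None of the 10 belonged to a gene list used here. Their log2 differences lay between 5.60 for CG6870 and 6.66 for Cpr72Ec. CG1561, CG9372, CG4950 and CG6870 overlap genes on the other strand (nod, Lon, CG13069 and Sytalpha). All 10 were also called higher than whole brain with GMR10E12, and all but CG6870 with GMR56F03. CG4950 was enriched by 4.08 log2 units with GMR56F03 and 4.17 with GMR10E12, and CG15695 by 4.07 and 6.01.

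On the other side, of the 10 genes with the largest depletion, chosen with at least 100 CPM in whole brain and no overlap, 7 encode neuropeptides or peptide hormones: Akh, Capa, Ilp2, AstA, Ilp3, Ms and Crz. The rule favors genes abundant in whole brain. No list of neuropeptide genes was tested, so the count does not describe such genes as a group. Corazonin, Crz, was even among libraries, at 98.9, 96.4 and 114 CPM in whole brain and 1.49, 2.42 and 1.19 CPM in sorted cells (-5.99 ± 0.34, adjusted p = 4.45e-05). Myosuppressin, Ms, fell from 542, 409 and 213 CPM to 2.98, 6.06 and 2.47 CPM (-6.71 ± 0.53). Allatostatin A, AstA, fell from 189, 222 and 139 CPM to 0, 0 and 1.11 CPM, with no count in sorted replicates 1 and 2.

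The others varied between whole brain libraries. Insulin-like peptide Ilp2 measured 374, 69.4 and 188 CPM in whole brain and at most 2 counts in a sorted library. Ilp3 measured 365, 39.3 and 202 CPM and 0, 6.36 and 0 CPM. Capa reached 25.9, 69.4 and 721 CPM in whole brain with 0, 0 and 1 counts in sorted cells. The adipokinetic hormone gene Akh had 108, 13621 and 28 counts in whole brain against 0, 0 and 5 in sorted cells, so its level rested on whole brain replicate 2, and leaving out any sorted library ended the call (adjusted p = 0.0736, 0.0949 and 0.13). The other 3 genes were chinmo, a zinc finger factor of neuronal timing (351, 267 and 364 CPM against 0.744, 5.76 and 7.14 CPM, -5.91 ± 0.47), CG12239 (-6.71 ± 1.18) and CG31221 (-6.11 ± 0.88).

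In the ensheathing lines Ms was not depleted, and AstA had a negative value only in GMR10E12. Ms had an enrichment of 0.74 in GMR56F03 and 2.12 in GMR10E12, so that the astrocyte-like value was lower by -8.17 ± 0.90 log2 units (adjusted p = 3.13e-05). For AstA the difference from the ensheathing lines was -6.98 ± 1.16 (adjusted p = 6.14e-04), with enrichments of 0.49 and -2.49. Crz was depleted in all lines (-4.28 in GMR56F03 and -4.83 in GMR10E12) and the difference was not called. In GMR86E01 cells at day 70 the enrichment was -1.23 for Ms and -0.51 for AstA, so both were depleted further at day 5 (differences of -5.48 ± 0.98 and -7.51 ± 0.93, adjusted p = 0.0119 and 0.00223). Crz remained depleted at day 70 (-4.75).

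To find where astrocyte-like glia differed from ensheathing glia, the enrichment over whole brain in GMR86E01 was compared with the mean enrichment in GMR56F03 and GMR10E12, each against its own whole brain, in 18 libraries of day 5. Of 9464 genes tested, 1566 (16.5%) differed, 613 (6.48%) with a larger value in astrocyte-like glia and 953 (10.1%) with a smaller one. These shares are the background for the gene lists compared with ensheathing glia below. With each line taken alone, 1212 genes differed from GMR56F03 and 1139 from GMR10E12, and 791 differed from both with the same sign. A call against the mean therefore need not hold against each line. Without whole brain replicate 1 of GMR86E01 the counts were 359 and 735. On total counts, where the median of all genes lay lower by 0.48 log2 units, they were 260 and 2004, so that 11.5% of the calls were larger in astrocyte-like glia in place of 39.1%. All 7 astrocyte-like markers had a larger enrichment: alrm by 2.68 ± 0.43 (SE) log2 units, Gat by 2.80 ± 0.48, Eaat1 by 2.22 ± 0.30, AANAT1 by 2.22 ± 0.25, e by 3.01 ± 0.68, wun2 by 2.89 ± 0.50 and htl by 2.12 ± 0.36. Of the 7, 6 were also called higher than whole brain in GMR56F03 and 5 in GMR10E12, with smaller values: alrm was enriched by 2.28 in GMR56F03 and 1.57 in GMR10E12, and Gat by 2.31 and 1.42. Gs2 differed by 2.32 ± 0.43, and 4 of the 5 pan-glial markers were more enriched in astrocyte-like glia. The plot of enrichment by cell type sets these genes against all others.

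**Figure D4:**
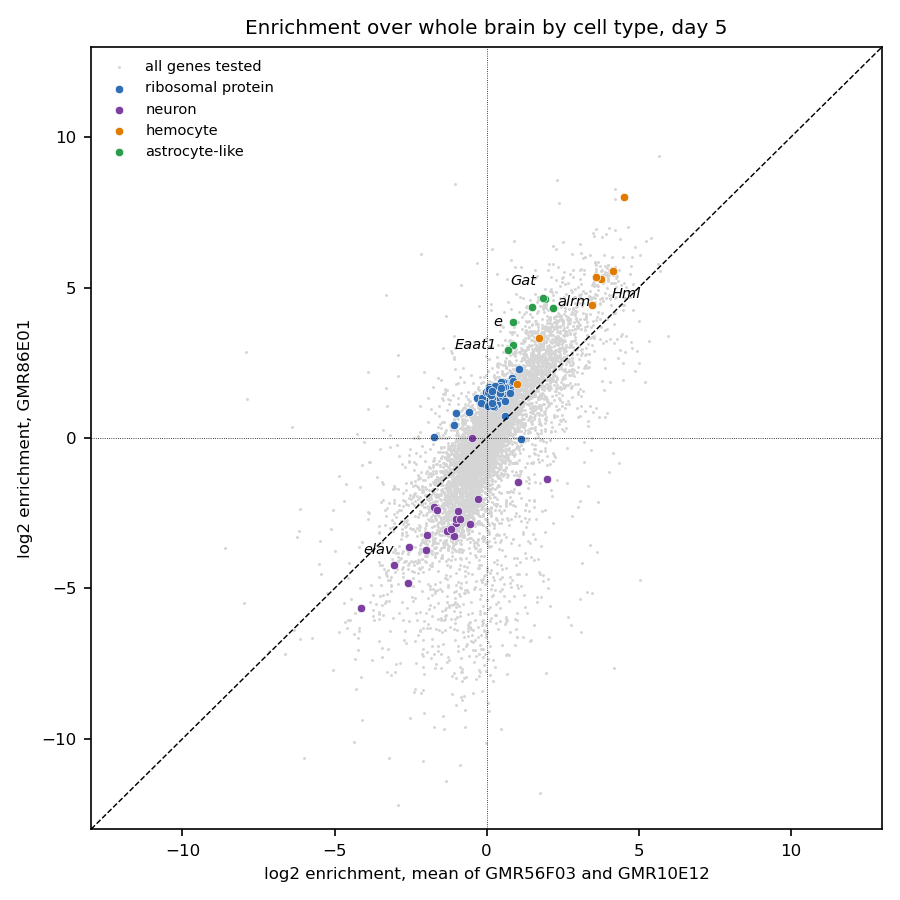
Log2 enrichment over whole brain at day 5 in astrocyte-like glia (y axis) against the mean of both ensheathing lines (x axis) for 9464 genes (light points; dashed line, equal enrichment), with astrocyte-like (green), hemocyte (orange), neuron (purple) and ribosomal protein (blue) genes marked. All 7 astrocyte-like markers and 82 of 85 ribosomal protein genes are called above the line of equal enrichment, and 11 of 21 neuron markers are called below it.

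Ribosomal protein genes differed broadly: 82 of 85 were more enriched in astrocyte-like glia, by a median of 1.23, and their median enrichment was 0.12 in GMR56F03 and 0.55 in GMR10E12. Neuron markers were further depleted, 11 of 21 being below the ensheathing lines (median enrichment -1.38 and -1.0 there). Likewise 20 of 35 transmitter receptors were lower than in ensheathing glia and none higher. The part of the neuron markers in the other differences was not tested. Of 14 uptake and recycling genes, 6 were more and 3 less enriched in astrocyte-like glia. Those with larger values were Gat, Eaat1, Gs2, e and AANAT1, given above, and ine (1.56 ± 0.37). Those with smaller values included Gdh (-1.49 ± 0.19) and Gs1 (-0.96 ± 0.19).

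Of 19 glial fate and FGF genes, 9 were more and none less enriched than in ensheathing glia, among them stumps (1.78 ± 0.36), sty (1.93 ± 0.23), an inhibitor of receptor tyrosine kinase signaling, and rho (2.13 ± 0.37). Engulfment genes gave 6 with larger values of 16, of which mbc differed the most (2.29 ± 0.29). The gap junction genes ogre (1.94 ± 0.39) and Inx2 (1.86 ± 0.39) had larger values, and shakB a smaller one (-1.73 ± 0.40). In glycolysis 6 genes of 26 had larger values, among them Treh (1.68 ± 0.34), Gapdh1 (0.95 ± 0.19), GlyS (0.95 ± 0.19) and Eno (0.84 ± 0.17), of which only Treh was called on total counts. Of 31 redox genes 8 were more enriched and none less, with GstE3 (1.69 ± 0.30) and GstE1 (1.54 ± 0.32) the highest. Fatty acid synthase FASN1 went the other way (-1.88 ± 0.37, adjusted p = 0.00231), with an enrichment of 0.64 in GMR56F03 and 0.33 in GMR10E12. The trehalose transporter Tret1-1 differed by -3.66 ± 0.61 log2 units (adjusted p = 6.03e-04), with an enrichment of -0.35 in GMR56F03 and 3.49 in GMR10E12.

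The 5 genes above ensheathing glia with the smallest p, among abundant genes whose pair differences did not overlap, were pros (1.78 ± 0.19, adjusted p = 2.17e-05), CG42788 (1.67 ± 0.18), AANAT1 (as above), the receptor phosphatase Ptp4E (2.22 ± 0.25) and Efa6 (1.46 ± 0.17), an exchange factor for the GTPase Arf6. For pros the enrichment was -2.35 in GMR56F03 and -2.74 in GMR10E12, so it was depleted less in astrocyte-like glia than in ensheathing glia. Ptp4E rose from 37.9, 41.2 and 38.2 CPM in whole brain to 294, 323 and 333 CPM in sorted astrocyte-like glia. The 5 below were KaiR1D (-2.96 ± 0.20, adjusted p = 5.29e-07), the phosphate transporter NaPi-III (-2.37 ± 0.18), CG9813 (-1.95 ± 0.15), Lrp4 (-2.35 ± 0.20) and CG6044 (-2.17 ± 0.19). Efa6, CG9813 and CG6044 overlap other genes. NaPi-III fell from 493, 565 and 521 CPM to 114, 102 and 81.6 CPM with GMR86E01, while its enrichment was -0.51 in GMR56F03 and 0.40 in GMR10E12.

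Against the same line at day 70, the enrichment of young sorted cells differed for 401 of 9369 genes (4.28%), 123 with a larger value at day 5 (1.31%) and 278 with a smaller one (2.97%). The median difference over all genes was -0.12. This median and the shares of 1.31% and 2.97% are the background for the lists compared with day 70. With the replicate block the counts of larger and smaller values were 59 and 153. They also moved with single libraries, between 38 and 142 for larger and between 89 and 703 for smaller values when each of 12 libraries was left out in turn. For the young libraries the counts of larger and smaller values were 38 and 104 without whole brain replicate 1, 142 and 178 without replicate 2, 38 and 111 without replicate 3, 80 and 269 without sorted replicate 2, and 140 and 703 without sorted replicate 3. For the old ones they were 87 and 136 without whole brain replicate 1, 51 and 103 without replicate 2, 39 and 89 without replicate 3, and 72 and 224 without sorted replicate 3. On total counts they were 81 and 418, 16.2% larger in place of 30.7%. The astrocyte-like markers kept a median enrichment of 3.06 at day 70, and 2 of the 7 were more enriched at day 5. AANAT1 differed by 1.73 ± 0.23 (adjusted p = 0.00323), and htl by 1.26 ± 0.32 (adjusted p = 0.0482), a call lost when any library except whole brain replicate 2 of day 5 was left out.

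Among abundant genes whose pair differences did not overlap, the 5 with the smallest p and a larger enrichment in young cells were Efa6 (1.65 ± 0.19), the giant muscle and nuclear linker Msp300 (1.43 ± 0.17), fat-spondin (2.07 ± 0.27), vkg (1.63 ± 0.21) and AANAT1. Efa6 had an enrichment of 1.90 at day 5 and 0.25 at day 70, with an adjusted p of 0.00223 for the difference. Those with a smaller enrichment were rad (-3.05 ± 0.34), CG43737 (-2.38 ± 0.27), the receptor tyrosine kinase Alk (-1.94 ± 0.23), the synaptotagmin Syt4 (-1.89 ± 0.23) and the calcium-activated potassium channel slo (-2.21 ± 0.27). For slo the value was -4.13 at day 5 and -1.92 at day 70, so the gene was depleted at both ages and further in young cells. Neuron markers as a list had a median of -1.39 at day 70 and 6 of 21 were further depleted at day 5.

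Nplp2 was far apart between ages, at 5.09 on day 5 and -1.55 on day 70 (difference 6.65 ± 1.21, adjusted p = 0.0128). Hemocyte markers had a median enrichment of 3.90 at day 70, and crq (1.31 ± 0.25) and Pxn (1.87 ± 0.35) were more enriched at day 5. The call for crq was lost without whole brain replicate 1 of day 5 (adjusted p = 0.0527) or with the replicate block (adjusted p = 0.0504), and those for crq and Pxn without whole brain replicate 3 of day 70 (adjusted p = 0.052 and 0.0524). The basement membrane genes vkg (1.63 ± 0.21), Col4a1 (1.49 ± 0.21), LanB2 (2.49 ± 0.46) and SPARC (1.67 ± 0.24) had a larger value at day 5 as well, LanB2 not without whole brain replicate 1 of day 5 (adjusted p = 0.0501). Over the whole list of adhesion and extracellular matrix genes, 4 of 28 tested had a larger and 4 a smaller value at day 5, with a median difference of -0.28. The part of the hemocyte markers in this was not tested. The plot of summed marker lists gives the levels in all 6 young libraries.

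**Figure D5:**
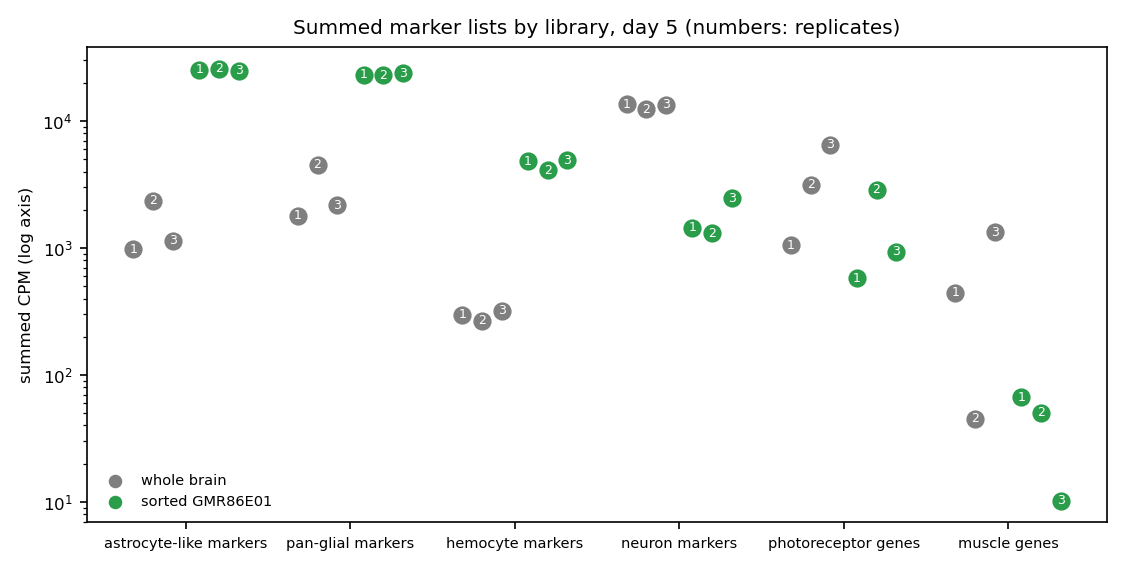
Summed CPM (log axis) of 6 marker lists in each of the 3 whole brain (grey) and 3 sorted (green) libraries at day 5, numbered by replicate. Astrocyte-like, pan-glial and hemocyte sums are higher in every sorted library, neuron sums lower, and photoreceptor and muscle sums are spread over libraries of both kinds.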

How the data were processed

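Polyadenylated RNA of FACS-sorted cells and of unsorted brain suspensions was sequenced with Smart-seq3 chemistry in paired reads. The authors aligned the reads to dm6 with STAR 2.7.3a, removed improperly paired reads with SAMtools, and deposited whole read counts per FlyBase gene. Whether molecular identifiers were collapsed or strand was used is not given in the sources used here. Replicates were separate pools of brains.

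Counts of the 6 libraries were filtered with filterByExpr, which removed between 0.145% and 3.44% of a library's counts, scaled with TMM and tested with edgeR 4.0.16 (quasi-likelihood test, R 4.3.3) with Benjamini-Hochberg adjustment over all genes tested at 0.05. SE is the log2 difference divided by the square root of F. Enrichments were compared between cell types (18 libraries of day 5) and ages (12 libraries of GMR86E01) as interactions of the same model. The model was first tested on simulated counts. Gene names were matched to Ensembl BDGP6, which is dm6, for 17500 of 17562 genes (99.6%), and give positions, exon lengths and overlaps. No library was a repeat of another: replicates of a group differed by more than sampling noise (chi-square per degree of freedom 17.6 to 84.5).

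The members and gene lists were chosen with earlier results of these data known. Amy-p, NimB2 and NimB4 are outside the lists and were named after their values were seen. Other genes outside the lists were named by rule: the 10 higher and 10 lower genes with the largest difference, without overlap and with a mean of at least 100 CPM in the higher group, the 10 nuclear coding genes with the most counts per kilobase in sorted cells, and the 5 higher and 5 lower genes with the smallest p in each interaction. Genes of ribosomal RNA (2.84% to 4.31% of counts) and of the mitochondrial genome were left out of that naming. Same-numbered libraries shared brains. Their deviations from the group means correlated at 0.032, 0.025 and 0.050, and those of differently numbered libraries between -0.049 and 0.018. The main fit left the pairing out, and the replicate block was an alternative. Other alternatives were DESeq2 1.42.0, DESeq2 size factors, total counts, other filters, 1 fit over all 36 libraries, no ribosomal RNA or mitochondrial genes, and each library left out (against ensheathing glia, only the 6 of GMR86E01). Thinned counts, the newer quasi-likelihood method and leaving out a pair of libraries were added after seeing the data.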

Additional observations from a re-analysis of the deposited data

Results flagged for a closer look

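The genes listed here had an enrichment over whole brain that differed between groups by the test of the difference itself (edgeR's quasi-likelihood test of the interaction, Benjamini-Hochberg adjusted p below 0.05, 3 pairs of libraries in each group). Values are differences of log2 enrichment and carry no explanation. For 39 named genes the young astrocyte-like glia differed from the mean of both ensheathing lines, 27 with a larger and 12 with a smaller value. The values furthest above ensheathing glia were those of e (3.01), wun2 (2.89), Gat (2.80), alrm (2.68), Gs2 (2.32), mbc (2.29), AANAT1 (2.22), Eaat1 (2.22) and Ptp4E (2.22). Next in size came rho (2.13), htl (2.12), ogre (1.94), sty (1.93), Inx2 (1.86), stumps (1.78), pros (1.78), GstE3 (1.69) and Treh (1.68). Lower but still called were CG42788 (1.67), crq (1.60), ine (1.56), GstE1 (1.54), Hml (1.51), Efa6 (1.46), Gapdh1 (0.95), GlyS (0.95) and Eno (0.84). Values below ensheathing glia were those of Ms (-8.17), AstA (-6.98), Tret1-1 (-3.66), KaiR1D (-2.96), NaPi-III (-2.37), Lrp4 (-2.35), CG6044 (-2.17), CG9813 (-1.95) and FASN1 (-1.88). Smaller differences on that side were those of shakB (-1.73), Gdh (-1.49) and Gs1 (-0.96).

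Between day 5 and day 70 of the same driver line, 19 named genes differed, 12 with a larger value at day 5 and 7 with a smaller one. Larger values at day 5 were those of Nplp2 (6.65), LanB2 (2.49), fat-spondin (2.07), Pxn (1.87), AANAT1 (1.73), SPARC (1.67), Efa6 (1.65) and vkg (1.63). Smaller differences of the same direction were those of Col4a1 (1.49), Msp300 (1.43), crq (1.31) and htl (1.26). Smaller values at day 5 were those of AstA (-7.51), Ms (-5.48), rad (-3.05), CG43737 (-2.38), slo (-2.21), Alk (-1.94) and Syt4 (-1.89). Both comparisons share the 6 young libraries, and the calls of Hml, Gapdh1, GlyS and Eno against ensheathing glia were lost on total counts (adjusted p = 0.16, 0.0533, 0.0761 and 0.0893). Those of Hml against ensheathing glia and of htl, crq, Pxn and LanB2 against day 70 were also lost in the settings given in the report for each.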

How the results depend on the processing

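Of 184 named genes called against whole brain, 160 kept their direction and call under every alternative in which they were tested, and 178 under those that left out no library. The same held for 35 of 39 named genes called against ensheathing glia and 15 of 19 called against day 70. No called gene reversed. Uncalled genes that changed sign were Eaat2 (-0.20) and Atpalpha (-0.084) on total counts, and wrapper, between -1.18 and 0.012 when a library was left out and highest without sorted replicate 2.

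Counts of genes higher and lower than whole brain ranged from 1345 to 1983 and from 1098 to 1868 when 1 library was left out. They were 842 and 541 without whole brain replicates 2 and 3 together, a choice made after seeing the data, when 21 named calls were lost. In 1 fit over all 36 libraries 2393 genes were lower. With the replicate block 2730 genes were called, 1421 higher and 1309 lower, of which 2685 were also called without it. Beside egr and Ldh, which lost their call, and Vmat, ple and DAT, which gained one, the block changed no call of a named gene against whole brain.

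Against ensheathing glia the counts ranged from 359 to 598 and from 702 to 1384 without 1 of the 6 young GMR86E01 libraries, the only ones left out in that comparison. They were 260 and 2004 on total counts, with 616 lower when every library needed 10 counts. Against day 70 they ranged from 38 to 142 and from 89 to 703. They were 336 and 560 with DESeq2, 81 and 418 on total counts, and 59 and 153 with the replicate block, with 81 higher without a filter. The call of htl against day 70 was also lost on total counts, with the replicate block and without a filter. The cause of these shifts was not tested. Sorted replicate 1, with 1514977 counts, limits what could be seen of weakly expressed genes: 3 counts there were 2.23 CPM.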
